A study of Homo sapiens with 15 samples.

Results

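The nuclear genes for the subunits of the mitochondrial respiratory chain were followed across 5 groups of cultured cells. The genes were chosen by symbol: the NDUFA, NDUFB, NDUFC, NDUFS and NDUFV genes of complex I, NDUFAB1, the SDH genes of complex II, the UQCR genes and CYC1 of complex III, the COX4 to COX8 genes of complex IV and the ATP5 genes of complex V. Rows with a hyphen in the name, as antisense and readthrough entries have, were left out. So were rows with an ending in P and digits, as pseudogene entries have. NDUFA4, which carries a complex I name, was placed with complex IV. This gave 93 of the 60107 listed genes, of which 40 were placed in complex I, 5 in complex II, 11 in complex III, 18 in complex IV and 19 in complex V. The symbols are the older ones of the files, so that ATP5B, for example, is the gene now called ATP5F1B. The choice also took in ATP5S and ATP5SL, which carry an ATP5 name without being subunits of the enzyme, and the pseudogene ATP5J2LP.

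The respiratory chain is a series of protein complexes in the inner mitochondrial membrane. Complexes I and II take electrons from NADH and succinate, complex III passes them to cytochrome c, complex IV passes them to oxygen, and complex V makes ATP from the proton gradient that complexes I, III and IV build up. Most subunits are encoded in the nucleus and imported, whereas a small set is encoded by mitochondrial DNA, and complex II alone has no subunit from mitochondrial DNA.

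The cells were MIA PaCa-2, an established human pancreatic carcinoma line. RNA was sequenced from 3 libraries each of cells given vehicle, Lys05, BAQ12, BAQ13 or BAQ12O, each compound at 5 µM for 24 h. Lys05 is a dimeric chloroquine known as an inhibitor of autophagy, and BAQ12 and BAQ13 are bisaminoquinoline derivatives that self-assemble into nanoparticles and that differ by a methylene unit. No structure is given for BAQ12O. All groups were of the same cell line, and the labels name no genetic change. They do not say whether the libraries of a group came from separate cultures, so the p-values measure the spread between these libraries, which may be technical.

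Each library held 1586566 to 2500551 reads on genes. Values are normalised counts, that is, reads scaled by 1 factor for each library, so that 3 reads are worth 2.49 to 4.14. The kit is described in different ways by the labels and the methods, so levels were not compared between genes. The keratin genes KRT8, KRT18 and KRT19 were detected in every library, as was VIM, whereas the epithelial marker EPCAM was at 0 in 14 of the 15 and the acinar genes PRSS1 and CPA1 in all 15. KRT8 fell with BAQ12, BAQ13 and BAQ12O (log2 differences -0.58, -0.85 and -0.60) and KRT18 with BAQ13 and BAQ12O (-0.50 and -0.43), whereas KRT19 differed by 0.12 with both BAQ13 and BAQ12O and was not called. The collagen gene COL1A2 fell with BAQ12 (-0.56) and BAQ13 (-0.54), and ZEB1, a mesenchymal marker, differed by 0.46 with BAQ13 (limma adjusted p = 0.060). The part of these genes in the results was not tested. BAQ12 replicate 3 stood apart from its group: its counts differed from those of the other BAQ12 libraries by a chi-square of 11.4 and 13.6 per degree of freedom, where the remaining BAQ12 pair gave 1.33. BAQ13 replicate 1 differed from its group by 3.41 and 6.23, and all other pairs within groups gave 1.06 to 1.77. For the genes described singly, values without these libraries are given where they moved the difference most.

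To show the control regions of genes that the values below turn on, the 150 bases before the RefSeq transcription start of 5 of them are printed from 5′ to 3′ on the strand of the gene (RefSeq, GRCh38.p14). SDHA, SDHB and SDHD belong to complex II, the complex with the lowest median against vehicle, and NDUFS7 and NDUFV1 are core subunits of complex I that stood above vehicle. The windows are chr5:218170-218319 (plus strand) for SDHA, chr1:17054033-17054182 (minus strand) for SDHB, chr11:112086723-112086872 (plus strand) for SDHD, chr19:1383757-1383906 (plus strand) for NDUFS7 and chr11:67606786-67606935 (plus strand) for NDUFV1. Capitals mark matches to the motifs named in the next paragraph.
SDHA: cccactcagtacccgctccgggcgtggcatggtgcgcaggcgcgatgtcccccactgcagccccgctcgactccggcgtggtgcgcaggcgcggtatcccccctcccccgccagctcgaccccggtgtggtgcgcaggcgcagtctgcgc
SDHB: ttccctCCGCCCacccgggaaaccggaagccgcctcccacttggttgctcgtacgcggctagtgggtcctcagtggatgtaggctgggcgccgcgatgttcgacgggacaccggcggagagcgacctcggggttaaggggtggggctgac
SDHD: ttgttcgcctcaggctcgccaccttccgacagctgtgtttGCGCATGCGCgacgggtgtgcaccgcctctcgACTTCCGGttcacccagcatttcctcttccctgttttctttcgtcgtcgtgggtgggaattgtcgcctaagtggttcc
NDUFS7: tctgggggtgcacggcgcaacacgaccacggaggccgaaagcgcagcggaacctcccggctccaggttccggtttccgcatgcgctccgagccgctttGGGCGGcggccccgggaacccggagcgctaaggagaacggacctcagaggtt
NDUFV1: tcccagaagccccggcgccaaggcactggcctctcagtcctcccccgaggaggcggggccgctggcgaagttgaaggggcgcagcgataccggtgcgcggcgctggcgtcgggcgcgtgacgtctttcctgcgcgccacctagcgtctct

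Promoters of respiratory genes are known for sites of NRF1, of ETS factors such as GABPA, of YY1 and of SP1. Of the 79 genes that could be tested, 64 had a RefSeq promoter of 250 bases before to 50 after the start, and both strands were searched for exact matches. The NRF1 motif (GCGCA joined to TGCGC, the first capitals in the SDHD window) was in 4 of the 64 (6.25%), beside 1.75% of 15843 promoters of protein-coding genes. The ETS motif CCGGAAGT was in 9 (14.1%, beside 6.19%), the YY1 motif (AAGATGG joined to CGG) in 7 (10.9%, beside 1.93%) and the SP1 motif GGGCGG in 38 (59.4%, beside 58.5%). In the printed windows SDHD held an NRF1 and an ETS match, SDHB and NDUFS7 each held an SP1 match, and SDHA and NDUFV1 held no match to these motifs. A match describes the letters, and no binding was measured.

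Of the 93 genes, 79 had enough reads to be tested: 37 of complex I, 4 of complex II, 9 of complex III, 12 of complex IV and 17 of complex V. Of the other 14, 9 had no read in any library. These were second rows for NDUFA7, NDUFB8, SDHD and UQCR11, whose reads were on the other row of the symbol, the pseudogene ATP5J2LP, and the tissue isoforms COX4I2, COX6A2, COX7A1 and COX7B2. A count of 0 allows up to 3 reads in a library, that is, a normalised count of up to 2.49 to 4.14, for counting error only. NDUFA4L2 had 6 reads in all libraries together, COX8C had 2, COX6B2 had 22, UQCRHL had 24 and ATP5L2 had 57.

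Together the respiratory chain genes took 1.33% ± 0.0095 (SD, n = 3) of all normalised counts with vehicle. The share was 1.30% ± 0.013 with Lys05, 1.29% ± 0.12 with BAQ12, 1.28% ± 0.064 with BAQ13 and 1.24% ± 0.013 with BAQ12O. All 3 Lys05 libraries (1.28% to 1.31%) and all 3 BAQ12O libraries (1.23% to 1.25%) lay below the lowest vehicle library (1.32%). BAQ12 ran from 1.16% in replicate 3 to 1.38% in replicate 1, on both sides of vehicle. These shares are descriptions with no test, and a share also moves with the counts of all other genes. In bulk samples fewer cells of a type and less of this RNA per cell cannot be told apart.

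**Figure D1:**
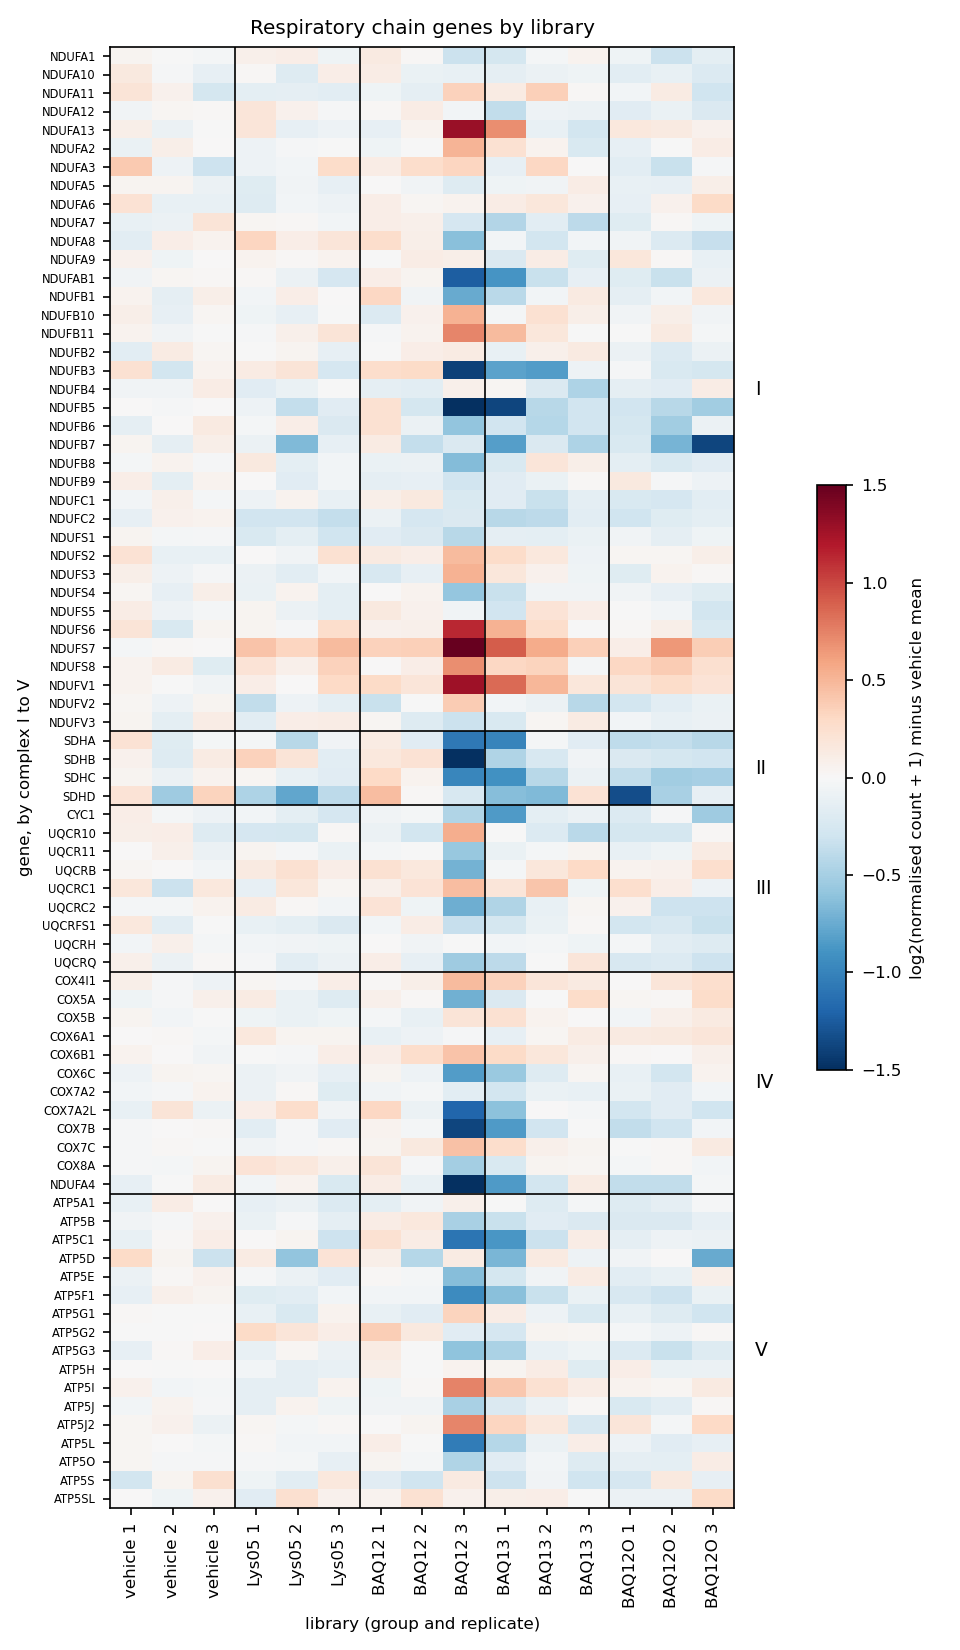
Heat map of the 79 tested respiratory chain genes (rows, by complex I to V) in the 15 libraries (columns), with colour for log2(normalised count + 1) minus the vehicle mean of the gene, blue lower and red higher, with the colour scale ending at 1.5 either way. Most cells are pale, and the deep colours stand mainly in BAQ12 replicate 3 (38 genes beyond 0.5) and BAQ13 replicate 1 (19 genes).

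The first question was whether the compounds changed the nuclear respiratory genes. None of the 79 passed an adjusted p of 0.05 against vehicle with any of the 4 compounds, by limma on log2(value + 1) over all 15 libraries with Benjamini-Hochberg adjustment over 10495 genes. The smallest adjusted p by limma was 0.52 with Lys05, 0.20 with BAQ12, 0.059 (NDUFC2) with BAQ13 and 0.16 with BAQ12O. edgeR's quasi-likelihood test and DESeq2 on the recovered reads also called 0 of the 79 in each. Of all genes tested, the share called higher and lower was 0.0762% and 0.162% with Lys05, 0.572% and 0.41% with BAQ12, 3.58% and 2.19% with BAQ13, and 0.934% and 0.543% with BAQ12O. At an unadjusted p under 0.05 limma counted 2 of the 79 with Lys05, 5 with BAQ12, 4 with BAQ13 and 3 with BAQ12O, edgeR counted 2, 6, 6 and 5, and DESeq2 counted 2, 6, 5 and 1. As shares by limma, 2.53% of the 79 genes passed unadjusted with Lys05, 6.33% with BAQ12 and 5.06% with BAQ13, beside 4.98%, 11.8% and 19.4% of all genes, and with BAQ12O, where 3 of the 79 passed, the share of all genes was 12.8%.

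The differences were small. The median log2 fold change over the 79 genes was -0.05 with Lys05, -0.07 with BAQ12, -0.08 with BAQ13 and -0.10 with BAQ12O, and that over all genes was within 0.01 of 0 in each. The genes below 0 numbered 52 (65.8%), 47 (59.5%), 52 (65.8%) and 59 (74.7%), beside 49.6%, 50.2%, 50.5% and 50.5% of all genes. The 95% confidence interval of the difference lay within 1 log2 unit of 0, which leaves out a doubling or a halving, for 78, 72, 73 and 75 of the 79 genes, and its median half-width was 0.31. The differences ran from -0.77 (NDUFB7, BAQ12O) to 0.78 (NDUFS7, BAQ12).

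Genes with every treated library below every vehicle library numbered 7 with Lys05, 3 with BAQ12, 14 with BAQ13 and 21 (26.6%) with BAQ12O, where the background over all genes was 7.37%, 7.61%, 14.4% and 13.3%. Genes with every treated library above vehicle numbered 5, 4, 6 and 5, where the background was 8.24%, 7.75%, 14.5% and 12.5%. The 21 genes that lay low with BAQ12O were spread over the chain, with 10 in complex I, 3 in complex II, 2 each in complexes III and IV, and 4 in complex V. The 5 that lay high were NDUFS7, NDUFS8, NDUFV1, UQCRB and COX6A1.

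**Figure D2:**
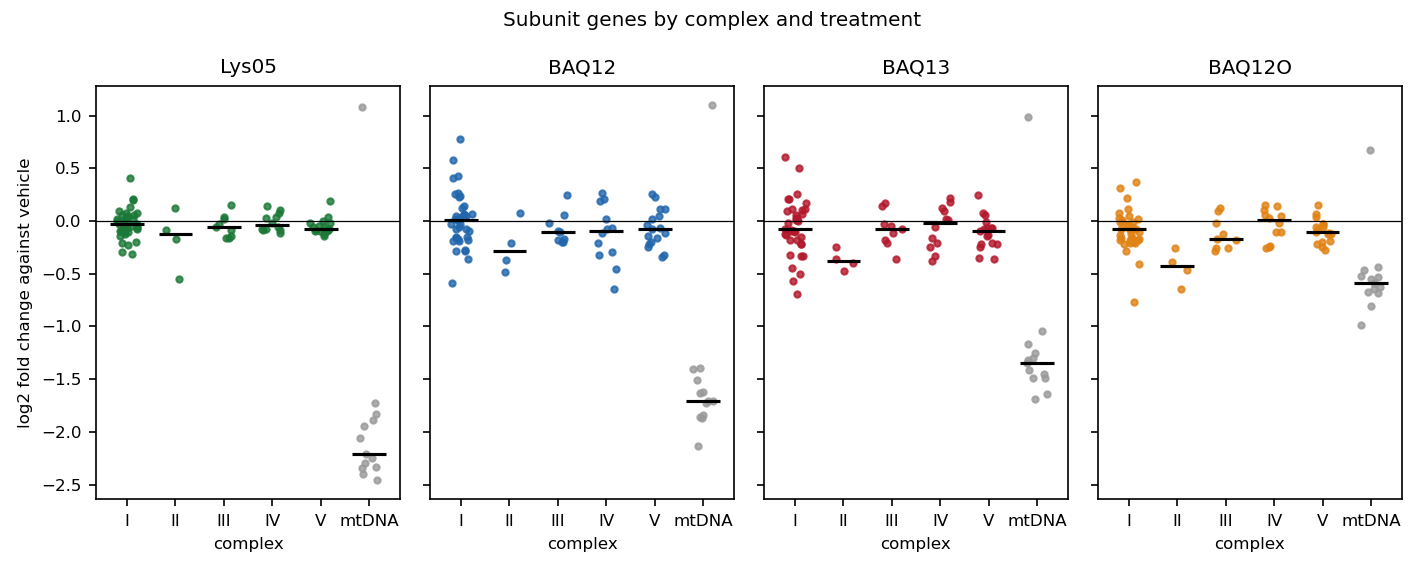
Log2 fold change against vehicle (vertical axis) of each tested gene by complex (horizontal axis), 1 panel a treatment, from the fit of all 15 libraries; bars are medians, and the last column holds the 13 subunits encoded by mitochondrial DNA. The nuclear genes of complexes I to V sit between -0.77 and 0.78, and the mitochondrial ones other than MT-ND6 lie below that range with Lys05, BAQ12 and BAQ13 and overlap it with BAQ12O, with medians of -2.21 to -0.59.

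Complex II oxidises succinate and is also the succinate dehydrogenase of the citric acid cycle. It had the lowest median of the 5 complexes with each compound, at -0.13 with Lys05, -0.29 with BAQ12, -0.38 with BAQ13 and -0.43 with BAQ12O, over 4 genes, none of which passed the test over all 15 libraries. The summed normalised counts of the complex were 533, 444 and 517 in the vehicle libraries and 386, 373 and 372 in the BAQ12O libraries. They were 525, 454 and 449.9 with Lys05, 579.6, 508 and 224 with BAQ12, and 285, 414 and 464 with BAQ13. Every BAQ12O library was below every vehicle library, whereas the lowest BAQ12 and BAQ13 sums were those of replicate 3 and replicate 1. Without BAQ12 replicate 3 the BAQ12 median was 0.18, and without BAQ13 replicate 1 as well the BAQ13 median was -0.19.

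SDHC (ENSG00000143252; chr1:161314257-161375340, GRCh38) encodes a membrane anchor that binds haem. Its normalised counts were 221, 202 and 224 with vehicle, 219, 199 and 191 with Lys05, 266, 224 and 109 with BAQ12, 115, 161 and 202 with BAQ13, and 166, 149.7 and 152 with BAQ12O. The BAQ12O libraries were all below vehicle, and the highest BAQ13 library stood just under the lowest vehicle one. The log2 difference from vehicle was -0.47 with BAQ12O (SE 0.24; limma adjusted p = 0.43) and -0.47 with BAQ13 (SE 0.24; limma adjusted p = 0.30). Leaving out BAQ12 replicate 3 does not touch these differences and lowers the shared estimate of the spread; the SE was then 0.13, and SDHC fell with both compounds (limma adjusted p = 0.035 with BAQ12O and 0.015 with BAQ13). Without BAQ13 replicate 1 as well, the fall with BAQ12O had a limma adjusted p of 0.00054, and SDHC was not called with BAQ13, at -0.25 (limma adjusted p = 0.12).

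SDHA (chr5:218241-256700), the flavoprotein that oxidises succinate, had 167, 126 and 140.4 with vehicle and 110.0, 112 and 108 with BAQ12O, with no overlap between the groups. Its BAQ13 values were 71.9, 140.4 and 127, which overlapped vehicle. The log2 difference was -0.39 with BAQ12O (SE 0.26; limma adjusted p = 0.57) and -0.40 with BAQ13 (SE 0.26; limma adjusted p = 0.44), and without BAQ13 replicate 1 the latter was -0.10. SDHA has near-identical pseudogene copies, and how reads shared with them were counted is not given in the sources used here.

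SDHB (chr1:17018722-17054170) carries the iron-sulfur clusters. It stood at 128, 106 and 133 with vehicle, 105, 101 and 99.3 with BAQ12O, and 136, 142 and 33.9 with BAQ12. The log2 difference with BAQ12 was -0.48 with replicate 3 and 0.19 without it, and neither passed (limma adjusted p = 0.57 and 0.79). SDHD (chr11:112086773-112120013), the second anchor, had few reads, with 17.4, 10.1 and 19.3 with vehicle against 5.39, 10.5 and 13.8 with BAQ12O and 10.6, 8.33 and 11.2 with Lys05. The groups overlapped, at log2 differences of -0.64 with BAQ12O (SE 0.36; limma adjusted p = 0.47) and -0.55 with Lys05.

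Complex I is the NADH dehydrogenase, built of a catalytic core and many accessory subunits around it. Of its 37 tested genes, 22, 18, 21 and 28 lay below 0 with Lys05, BAQ12, BAQ13 and BAQ12O, and the medians were -0.03, 0.01, -0.08 and -0.08. NDUFS7 (ENSG00000115286; chr19:1383527-1395589), a core subunit with an iron-sulfur cluster near the quinone site, had normalised counts of 88.8, 91.6 and 90.9 with vehicle. It had 122, 113.5 and 126 with Lys05, 116, 116 and 280.1 with BAQ12, 171, 133 and 116 with BAQ13, and 97.0, 143 and 117 with BAQ12O. All 12 treated libraries were above all 3 vehicle libraries. The log2 difference was 0.41 with Lys05, 0.78 with BAQ12, 0.60 with BAQ13 and 0.38 with BAQ12O, each with an SE of 0.25, and the limma adjusted p was 0.999, 0.21, 0.18 and 0.57. The difference with BAQ12 was 0.36 without replicate 3. The 4 differences share the vehicle libraries, which lay close together for this gene.

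NDUFV1 (chr11:67605653-67612554), the subunit that binds NADH and the flavin, gave 112, 107 and 104 with vehicle, 132, 122 and 261 with BAQ12, and 194, 152 and 122 with BAQ13. Both groups lay above vehicle, and the log2 difference was 0.58 with BAQ12 (limma adjusted p = 0.30) and 0.51 with BAQ13 (limma adjusted p = 0.20), with an SE of 0.22. Without BAQ12 replicate 3 and BAQ13 replicate 1 the differences were 0.24 and 0.34. NDUFS1, the largest core subunit, was at 349, 332 and 335 with vehicle against 289, 305 and 274 with Lys05 and 301, 289.9 and 252 with BAQ12. Both groups lay wholly below vehicle, with log2 differences of -0.23 and -0.27 (SE 0.09; limma adjusted p = 0.83 and 0.20). The BAQ13 libraries of NDUFS1 (304 to 317) and its BAQ12O libraries (307 to 327) were also all below vehicle.

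Among the accessory subunits, NDUFB5 (chr3:179604690-179627647) had the largest difference of complex I with BAQ13. It gave 158, 155 and 158 with vehicle, 149, 122 and 139 with Lys05, 183, 131 and 46.5 with BAQ12, 59.7, 118 and 128 with BAQ13, and 128, 117 and 109 with BAQ12O. The Lys05, BAQ13 and BAQ12O libraries were all below vehicle, and BAQ13 replicate 1 was the lowest of its group. The log2 difference with BAQ13 was -0.69 (SE 0.35; limma adjusted p = 0.29), and -0.35 without that library. NDUFB7 (chr19:14566078-14572062) gave 75.6, 67.0 and 78.0 with vehicle and 62.5, 44.8 and 27.6 with BAQ12O, a log2 difference of -0.77 (SE 0.25; limma adjusted p = 0.16). Its BAQ12O libraries spread widely and yet all lay under vehicle, and without BAQ12O replicate 3 the difference was -0.46. The BAQ13 libraries of NDUFB7, at 41.1, 62.9 and 52.8, were also all under vehicle, whereas its Lys05 and BAQ12 libraries overlapped vehicle.

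Complex III had medians of -0.05, -0.11, -0.07 and -0.17 over 9 genes with Lys05, BAQ12, BAQ13 and BAQ12O. UQCRFS1, the Rieske iron-sulfur protein, gave 212, 169.7 and 188 with vehicle and 156, 160.2 and 150.3 with BAQ12O, with no overlap, at a log2 difference of -0.28 (SE 0.12; limma adjusted p = 0.33). CYC1, cytochrome c1, gave 116, 106 and 103 with vehicle and 59.7, 97.5 and 101 with BAQ13, all below vehicle and lowest in replicate 1, at a log2 difference of -0.36 (SE 0.19; limma adjusted p = 0.30), or -0.12 without that library. UQCRC1, a core protein, had the largest difference of the complex with BAQ12, at 0.25 (0.14 without replicate 3), and UQCR10 that with Lys05, at -0.16.

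Complex IV, cytochrome c oxidase, had medians of -0.03, -0.09, -0.02 and 0.01 over 12 genes. COX4I1, the ubiquitous form of subunit 4, gave 952 ± 54.1 (SD, n = 3) with vehicle and 1110.5 ± 83.6 with BAQ13, with all BAQ13 libraries above vehicle, at a log2 difference of 0.22 (SE 0.11; limma adjusted p = 0.26). NDUFA4 gave 249.9, 271 and 297 with vehicle, 294, 252 and 70.3 with BAQ12, and 150.2, 225 and 296 with BAQ13. Its lowest values were again in BAQ12 replicate 3 and BAQ13 replicate 1. The log2 difference was -0.65 with BAQ12 (SE 0.36; limma adjusted p = 0.48) and -0.00016 without replicate 3, and it was -0.26 with BAQ12O. COX7B stood at 504 ± 6.12 with vehicle and 399 ± 112 with BAQ13, a log2 difference of -0.38, or -0.14 without BAQ13 replicate 1. COX8A had the largest difference of the complex with Lys05, at 0.15. Of 11 tissue isoforms and regulators of the chain 5 could be tested, with medians of -0.07, -0.08, -0.16 and -0.10. All 21 catalytic and core subunits of the chain were tested, with medians of -0.08, -0.04, -0.12 and -0.10, and limma called none of either list over all 15 libraries.

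Complex V, the ATP synthase, had medians of -0.07, -0.07, -0.10 and -0.10 over 17 genes, and 14, 11, 14 and 14 of them lay below 0. The catalytic subunit gene ATP5B gave 581 ± 23.3 (SD, n = 3) with vehicle, 548 ± 23.1 with Lys05, 565 ± 130.4 with BAQ12, 492 ± 28.0 with BAQ13 and 511 ± 19.4 with BAQ12O, and the BAQ13 and BAQ12O libraries were all below vehicle. Its log2 difference with BAQ13 was -0.24 (SE 0.12; limma adjusted p = 0.31). ATP5A1, for the other large subunit of the catalytic head, differed by -0.14, -0.04, -0.07 and -0.12. ATP5C1, of the central stalk, had the largest difference of complex V with BAQ13 (-0.36, or -0.11 without replicate 1), ATP5F1, of the peripheral stalk, that with BAQ12 (-0.34, or -0.043 without replicate 3), ATP5D that with BAQ12O (-0.27) and ATP5G2, for the membrane ring, that with Lys05 (0.19). ATP5I, a small membrane subunit, gave 503 ± 20.9 with vehicle and 668, 592 and 543 with BAQ13, all above vehicle, at a log2 difference of 0.25 (SE 0.15; limma adjusted p = 0.39).

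**Figure D3:**
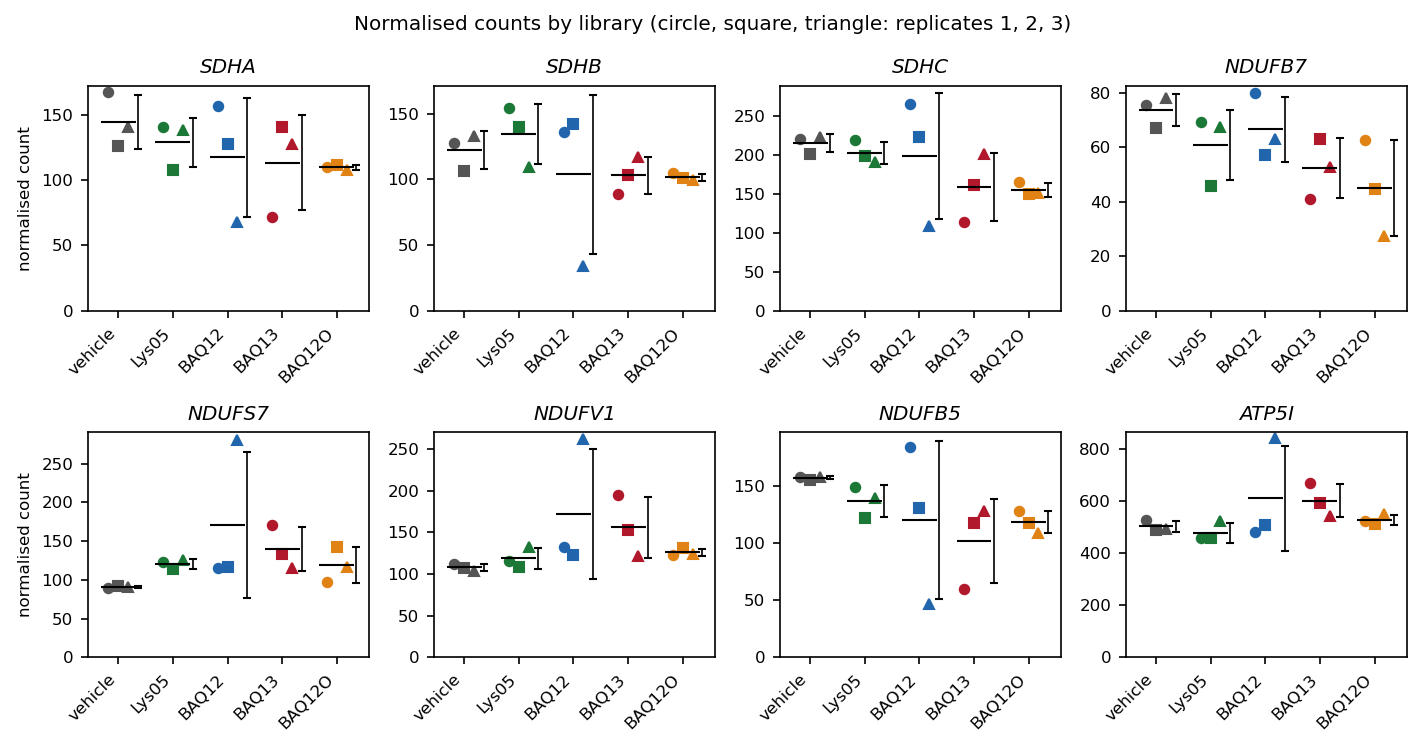
Normalised counts (vertical axes, from 0) of 8 respiratory chain genes in the 15 libraries by group; points are libraries, horizontal bars are group means and error bars are the SD (n = 3). BAQ12 replicate 3 lies apart for SDHB (33.9), SDHC (109), NDUFS7 (280.1), NDUFV1 (261) and NDUFB5 (46.5), and the BAQ12O libraries of SDHA, SDHB and SDHC lie close together below vehicle.

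The largest departures were in 2 libraries. In BAQ12 replicate 3, 38 of the 79 genes (48.1%) lay more than 0.5 log2 from the vehicle mean, from -1.94 (NDUFA4) to 1.62 (NDUFS7), beside 40.7% of all genes. In BAQ13 replicate 1 it was 19 (24.1%), from -1.38 (NDUFB5) to 0.91 (NDUFS7), beside 28.1% of all genes. In each of the other libraries it was 0 to 5 (0% to 6.33%), beside 3.35% to 18.7% of all genes. The median departure of each complex from vehicle in BAQ12 replicate 3 was below 0, at -0.058, -1.02, -0.45, -0.33 and -0.18 for complexes I to V, and 17 of the 37 complex I genes were above vehicle. Its summed complex I counts, at 9509.7, were the highest of the 15 libraries, whereas its sums for complex II (224), complex III (2974) and complex V (7091) were the lowest.

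Measured against the other libraries of its own group, which leaves the vehicle libraries out, each of these 2 libraries departed in much the same genes. Across the 79 genes the departures had Pearson's r = 0.80 and Spearman's rho = 0.80, with the same sign in 67, and over all 10495 genes r was 0.57. Genes are not independent replicates, and no test was made. In BAQ12 replicate 3 SDHB departed furthest down and NDUFA13, a supernumerary subunit of complex I, furthest up (1.33). The departures moved with base composition. With the 79 genes in 3 bins by the GC content of their transcripts, the median deviation from vehicle in BAQ12 replicate 3 was -0.59 in the lowest bin (26 genes, 34.4% to 47.3% GC), -0.23 in the middle (27 genes) and 0.34 in the highest (26 genes, 53.8% to 69.3%). The same medians were -0.28, -0.17 and 0.10 in BAQ13 replicate 1 and -0.03, -0.06 and 0.00 in BAQ13 replicate 3. The same order from low to high GC was also seen in libraries that did not stand apart, with medians of -0.10, -0.05 and 0.15 in BAQ13 replicate 2, -0.13, -0.08 and 0.05 in Lys05 replicate 3 and -0.16, -0.15 and 0.02 in BAQ12O replicate 2. Vehicle replicate 1, with no compound, had the order too, at -0.02, 0.03 and 0.06, as had Lys05 replicate 1, BAQ12 replicate 2 and BAQ12O replicate 1. Vehicle replicates 2 and 3, Lys05 replicate 2, BAQ12 replicate 1, BAQ13 replicate 3 and BAQ12O replicate 3 did not. NDUFS7 (66.8%) and NDUFV1 (60.5%) stood at the high end of GC and NDUFB5 (40.1%) and NDUFA4 (40.4%) at the low end. Of the complex II genes, SDHB, SDHC and SDHD (48.3% to 50.1%) were in the middle bin. SDHA (54.8%) was in the highest bin, and yet its deviation from vehicle in BAQ12 replicate 3 was -1.07. The part of base composition in the differences was not tested.

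**Figure D4:**
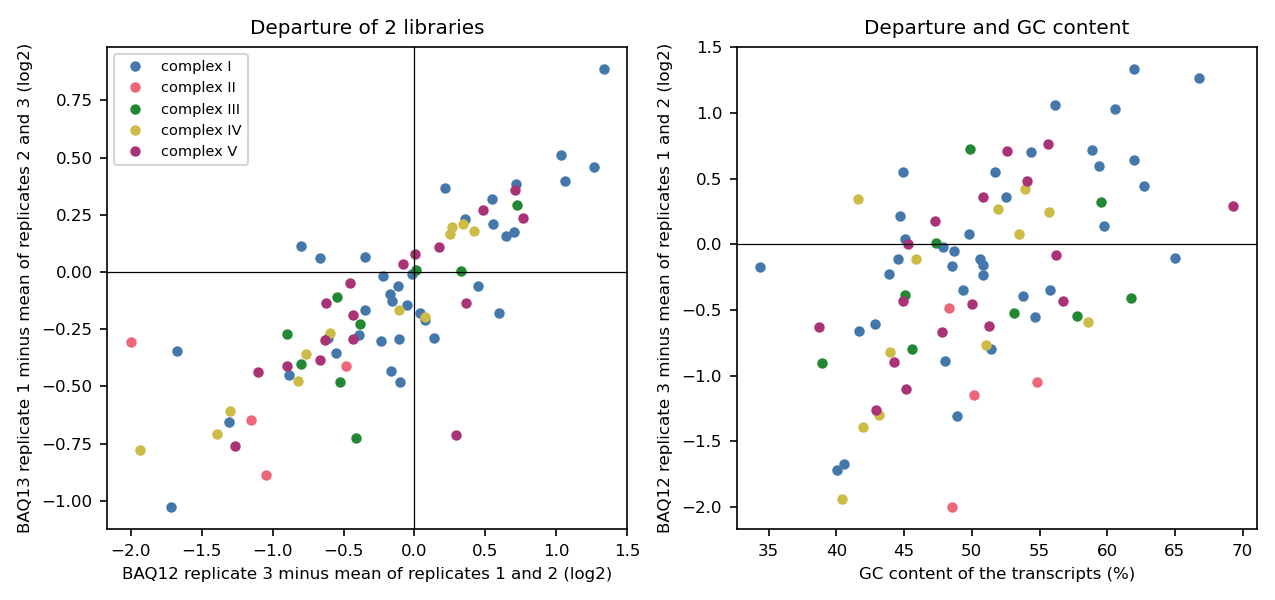
Left, departure of BAQ12 replicate 3 from the mean of the other BAQ12 libraries (horizontal axis) against that of BAQ13 replicate 1 from its own group (vertical axis), in log2 units, for the 79 genes. Right, the departure of BAQ12 replicate 3 against the GC content of the transcripts in percent; the points on the left rise together (r = 0.80), and those on the right tend upwards.

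When BAQ12 replicate 3 was left out, the differences of the other compounds from vehicle kept their values and the median half-width of their intervals was 0.21. In this fit of 14 libraries, 4 of the 79 genes (5.06%) rose and 7 (8.86%) fell with BAQ13, against a background of 7.12% and 6.35% of 10657 genes, so that the shares were near the background. These genes are named after their values were seen. The 4 that rose were NDUFS7, NDUFV1, COX4I1 and ATP5I. The 7 that fell were NDUFB5, NDUFAB1, NDUFC2, SDHC, COX7B, ATP5F1 and ATP5B, among which NDUFAB1 is the mitochondrial acyl carrier protein. The limma adjusted p ran from 0.0025 (NDUFS7) to 0.040 (COX4I1). With BAQ12O, NDUFB7 (limma adjusted p = 0.036) and SDHC fell, 2 of 79 (2.53%), against a background of 2.28% lower and 2.66% higher. With BAQ12 itself, now at 2 libraries, limma called 0 of 79 (4 at an unadjusted p under 0.05), against a background of 0.732% and 0.554%, and the median was 0.03. With Lys05 limma called 0 of 79 (5 unadjusted), against 0.235% and 0.244%. edgeR and DESeq2 were not run on these libraries.

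Most of the BAQ13 calls were lost without BAQ13 replicate 1. With both libraries left out, NDUFS7 (0.45; limma adjusted p = 0.015) and UQCRB (0.24) rose and NDUFB4 (-0.34) fell with BAQ13, 3 of the 79, against a background of 6.39% higher and 5.39% lower. With BAQ12O the count went up to 8, against a background of 4.47% higher and 4.66% lower. NDUFS7 (0.38) rose, and NDUFB7 (-0.77), SDHC (-0.47), NDUFB5 (-0.41), SDHA (-0.39), UQCRQ (-0.25), ATP5G3 (-0.24) and COX7B (-0.24) fell, 7 of 79 (8.86%). A fit of only the 6 BAQ12O and vehicle libraries, which hold neither library that stands apart, called the same 7 lower and none higher, where the background was 4.59% and 4.36%. A fit of only the BAQ13 and vehicle libraries called NDUFS7 and NDUFV1 higher and none lower, where the background was 5.45% and 3.91%. NDUFS7 thus passed with BAQ13, and SDHC and NDUFB7 with BAQ12O, in each of these 3 kinds of fit. The fits share libraries and are not independent, and none of these genes passed over all 15 libraries. For SDHC and NDUFB7 the difference with BAQ12O was the same in each fit, and only the estimate of the spread moved. In the fit of only the Lys05 and vehicle libraries 1 gene fell, NDUFC2, an accessory subunit of complex I, at -0.31 (limma adjusted p = 0.026), against a background of 0.608% lower and 0.547% higher. Its counts were 271, 307 and 306 with vehicle and 242, 242 and 229 with Lys05. A readthrough transcript, NDUFC2-KCTD14, overlaps this gene, and how reads shared with it were counted is not given in the sources used here.

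The compounds were then compared with each other in 6 pairs at the same dose and time, with p-values adjusted over all genes within a pair and not over the pairs. Over all 15 libraries 0 of 79 genes passed in any pair by limma, edgeR or DESeq2. The unadjusted counts under 0.05 by limma were 3 for BAQ13 against BAQ12, 7 for BAQ12O against BAQ12, 5 for BAQ13 against Lys05, 2 for BAQ12 against Lys05, 2 for BAQ12O against Lys05 and 0 for BAQ13 against BAQ12O, beside 8.27%, 8.38%, 14.6%, 7.17%, 7.36% and 11.2% of all genes. In the same order, edgeR gave 2, 7, 5, 4, 1 and 0, and DESeq2 gave 1, 3, 1, 4, 0 and 0. The shares of all genes called by limma were 0.505% higher and 0.0572% lower, 0.2% and 0.0286%, 1.88% and 0.781%, 0.133% and 0.0286%, 0.219% and 0.0286%, and 0.924% and 0.467%.

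BAQ12 and BAQ13, which differ by the methylene unit, had a median difference over the 79 genes of -0.04 (BAQ13 minus BAQ12), and the 95% interval lay within 1 log2 unit of 0 for 76 of them. For SDHC the difference was -0.26, with an interval of -0.77 to 0.24. Without BAQ12 replicate 3, which leaves BAQ12 at 2 libraries, SDHC (-0.65), NDUFAB1 (-0.52), NDUFB3 (-0.84) and ATP5B (-0.38) were lower with BAQ13 than with BAQ12 (limma adjusted p = 0.012, 0.034, 0.045 and 0.0058), 4 of 79 against a background of 1.41% lower and 1.69% higher. Without BAQ13 replicate 1 too, SDHC (-0.43), ATP5B (-0.34) and NDUFC1 (-0.36) were lower, against a background of 0.809% lower and 1.44% higher. SDHC had 266 and 224 in the remaining BAQ12 libraries, above every BAQ13 and BAQ12O library. It was also lower with BAQ12O than with BAQ12 (-0.64; limma adjusted p = 0.032) without BAQ12 replicate 3, where 0.103% of all genes were lower and 0.403% higher. Without both libraries 5 genes were lower with BAQ12O than with BAQ12, SDHC, SDHB, NDUFC1, ATP5B and ATP5G3, against 1.51% lower and 1.2% higher.

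Against Lys05, ATP5I was higher with BAQ13 by 0.33 (limma adjusted p = 0.0094) without BAQ12 replicate 3, against a background of 4.16% higher and 3.45% lower, and by 0.25 without both libraries, against 3.37% and 2.49%. Its counts were 457, 456 and 523 with Lys05, all below the BAQ13 libraries. SDHC was lower with BAQ12O than with Lys05 by a log2 difference of -0.38, both without the 2 libraries that stand apart (limma adjusted p = 0.016), against 1.19% lower and 1.26% higher, and in a fit of only the 6 libraries compared (limma adjusted p = 0.022), against 1.07% and 1.24%. Without both libraries BAQ13 was above BAQ12O for NDUFB8 (0.31) and UQCRQ (0.34), 2 of 79 against 2.83% higher and 2.19% lower. A pair that missed the threshold is not shown to act alike.

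Other genes of the pathway were taken from lists of assembly factors, electron carriers and regulators. All 57 assembly factors could be tested, and their medians were -0.03, -0.04, -0.04 and -0.09 with Lys05, BAQ12, BAQ13 and BAQ12O. Over all 15 libraries 1 of the 57 passed, NDUFAF6, an assembly factor of complex I, which fell with BAQ13. The background with BAQ13 was 2.19% of all genes lower and 3.58% higher. NDUFAF6 went from 17.4, 24.6 and 22.9 to 9.33, 8.20 and 13.4 (log2 difference -1.01, SE 0.28, limma adjusted p = 0.040). The counts were low, and the call was lost with DESeq2 (adjusted p = 0.094), without the filter on low values (limma adjusted p = 0.11), with a replicate block (limma adjusted p = 0.064) and without any 1 vehicle library or BAQ13 replicate 1 or 2 (limma adjusted p from 0.052 to 0.16). The log2 difference in these fits was -1.16 to -0.88. Without BAQ12 replicate 3, 7 assembly factors fell with BAQ13, among them COX11, COX18, COA4 and CMC1 of complex IV, LYRM7 of complex III and LRPPRC, which stabilises mitochondrial mRNAs, and COX14 rose, against the background of 6.35% lower and 7.12% higher. Without BAQ13 replicate 1 as well 4 fell, COX11, LYRM7, LRPPRC and NDUFAF6, and none rose, against 5.39% and 6.39%. COX11 was also called lower with BAQ12O, as was TMEM70, an assembly factor of complex V, but only with libraries that stand apart left out. The background with BAQ12O was 2.28% lower without BAQ12 replicate 3 and 4.66% lower without both libraries.

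Of 21 genes for electron carriers and their supply, such as cytochrome c and coenzyme Q synthesis, 19 could be tested and limma called none over all 15 libraries, with medians of -0.04, -0.14, -0.32 and -0.08. Without BAQ12 replicate 3, ETFA (-0.56), which carries electrons from fatty acid oxidation, and COQ2 (-0.52), of coenzyme Q synthesis, fell with BAQ13, and HCCS (-0.53), which attaches haem to cytochrome c, fell with BAQ12O. ETFA had 119, 147 and 214 with BAQ13 against 198, 255 and 235 with vehicle, so that the groups overlapped. Without BAQ13 replicate 1 as well ETFA (-0.36) and COQ2 (-0.46) still passed, and both counts stand against the same backgrounds. Of 11 regulators of nuclear respiratory genes 9 could be tested, with medians of 0.02, -0.06, -0.04 and -0.20. Among them PPARGC1B, a coactivator of NRF1 and of oestrogen-related receptors, rose with BAQ13, against a background of 3.58% higher and 2.19% lower. Its counts were 26.9 ± 4.43 (SD, n = 3) with vehicle and 46.1 ± 1.27 with BAQ13 (log2 difference 0.77, SE 0.18; limma adjusted p = 0.014). Without vehicle replicate 3 the limma adjusted p was 0.085, and without BAQ13 replicate 1 it was 0.054. NRF1 itself stood at 3.77 to 16.2 over the 15 libraries and was not called.

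The nuclear genes can be set beside the partner subunits made in the mitochondrion, whose 13 mRNAs were all tested. With Lys05, BAQ12 and BAQ13, 12 fell and 1 rose, with median log2 fold changes of -2.21, -1.70 and -1.35. With BAQ12O 9 fell and 1 rose, with a median of -0.59. The background over all genes was 0.162% lower and 0.0762% higher with Lys05, and 0.41% and 0.572% with BAQ12. It was 2.19% and 3.58% with BAQ13, and 0.543% and 0.934% with BAQ12O. Over every setting tried the medians stayed between -2.23 and -2.18 with Lys05, -1.86 and -1.62 with BAQ12, -1.37 and -1.31 with BAQ13, and -0.67 and -0.56 with BAQ12O. MT-CO1, the catalytic subunit of complex IV, gave 4147, 4291 and 4212 with vehicle, 1113, 1071 and 1102 with Lys05, 1495, 1561 and 1766 with BAQ12, 1792, 1653 and 1639 with BAQ13, and 2609, 2659 and 2843 with BAQ12O. All treated libraries were below all vehicle libraries. The mRNA that rose was MT-ND6, which is read from the light strand, with 476 to 563 with vehicle and 1037 to 1106 with Lys05. Its call with BAQ12O was lost without vehicle replicate 2 or 3. How strand was used in counting is not given in the sources used here, so its reads cannot be told apart from those of the opposite strand, nor reads of mitochondrial genes from those of near-identical nuclear copies.

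With Lys05, the complex IV genes COX4I1, COX5A and COX5B differed from vehicle by 0.03, -0.05 and -0.08, where MT-CO1 differed by -1.94, and the complex III genes UQCRFS1 and CYC1 differed by -0.16 and -0.15, where MT-CYB differed by -1.83. The mitochondrial median was nearest 0 with BAQ12O, with which the nuclear median was the lowest. The difference between the nuclear and mitochondrial genes was not tested, and all 4 comparisons share the vehicle libraries. Nuclear genes of the mitochondrial ribosome had medians of -0.05, -0.08, -0.11 and -0.13 over 75 genes, and the cytosolic ribosomal protein genes 0.04, -0.04, 0.03 and -0.01 over 83.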

How the data were processed

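The authors deposited a signal value for every gene in each library, made by scaling its reads with 1 factor for the library. The submitters' notes name STAR, HTSeq, DESeq2 and GRCh38, with versions not given in the sources used here. Every value came out as a whole number of reads within 0.02 (100% in each library), and these reads were used for the filter and the count tests. limma 3.58.1 (R 4.3.3) was run on log2(value + 1) with a variance trend over all 15 libraries, so that fold changes are on that scale and understate the change of low genes. Genes were kept by filterByExpr of edgeR 4.0.16 (minimum count 10, total 15), and p-values were adjusted by Benjamini-Hochberg. edgeR and DESeq2 1.42.0, other pseudocounts (0.1 and 5), TMM factors, other filters, a replicate block, fits of 6 libraries and fits without single libraries were alternatives, 25 in all, and the fit without BAQ12 replicate 3 and BAQ13 replicate 1 was chosen after seeing the data. The fitting script was tested on simulated data that held no library that stands apart, so that test does not cover such libraries.

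The genes and lists were chosen with earlier results of these data known. Named genes were, for each complex and treatment, the 1 with the largest difference, the SDH, core and isoform genes, and up to 5 called genes of each other list, and genes called without the libraries that stand apart were added after their values were seen. The 131 name matches left out held 605 reads, beside 413850 on the 93 genes. Coordinates and transcript GC content are from GENCODE 29 (GRCh38), and figures were drawn with matplotlib 3.10.9.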

Additional observations from a re-analysis of the deposited data

How the results depend on the processing

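The counts of called respiratory chain genes, 0 in each comparison over all 15 libraries, moved with the libraries fitted and with 1 filter. The shares of all genes called moved as well. With BAQ13 they were 3.58% higher and 2.19% lower over all 15 libraries, and 7.12% and 6.35% without BAQ12 replicate 3. With BAQ12O they were 0.934% and 0.543%, and 2.66% and 2.28% without that library. In fits of only the 6 libraries compared, 1 gene was lower with Lys05 than with vehicle, 2 were higher with BAQ13, 7 were lower with BAQ12O and 1 was lower with BAQ12O than with Lys05. With at least 10 reads required in every library (78 of the genes tested), 1 was lower with BAQ13. The share of all genes is not given for this filter or for the fit without BAQ13 replicate 3. Without BAQ12 replicate 3 and BAQ13 replicate 1, 2 were higher and 1 lower with BAQ13 and 1 higher and 7 lower with BAQ12O; 3 were lower for BAQ13 against BAQ12, 5 for BAQ12O against BAQ12 and 1 for BAQ12O against Lys05, and 1 was higher for BAQ13 against Lys05 and 2 for BAQ13 against BAQ12O. Without single libraries the count ranged from 0 to 4 higher and 0 to 7 lower with BAQ13, 0 to 2 lower with BAQ12O, 0 to 4 lower for BAQ13 against BAQ12, 0 to 1 lower for BAQ12O against BAQ12 and 0 to 1 higher for BAQ13 against Lys05. The highest values were those without BAQ12 replicate 3, and without BAQ13 replicate 3 the count lower with BAQ13 was 1. The count of mitochondrial genes higher with BAQ12O ranged from 0 (without vehicle replicate 2 or 3) to 1.

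The median ranged from -0.063 to -0.030 with Lys05 (the latter without Lys05 replicate 3) and from -0.063 to -0.021 for BAQ12O against Lys05 (the latter without BAQ12O replicate 1). SDHB with BAQ12 against vehicle ranged from -0.83 to 0.19 without single libraries and was 0.19 without both libraries that stand apart. For BAQ12O against BAQ12, SDHB was -0.088 by edgeR, -0.043 by DESeq2, -0.45 without both libraries and -0.45 to 0.57 without single libraries, ATP5B ranged from -0.32 to 0.00046 and ATP5G3 from -0.30 to 0.064. NDUFAB1 for BAQ13 against BAQ12 ranged from -0.52 to 0.15. The cause was not tested.

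In no comparison were all 3 correlations of deviations between libraries of the same number above 0.1. For BAQ13 against BAQ12 they were -0.49, 0.12 and -0.49, and for BAQ12 against Lys05 they were 0.11, 0.06 and 0.20. The deviations were taken from group means that include the libraries that stand apart. The correlations therefore cannot settle whether the replicate numbers pair the libraries. Fits with a replicate block called 0 of the 79 genes in each comparison, as did the fits of all 15 libraries without the block.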
